A study of Mus musculus with 25 samples.

Results

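Oxidative phosphorylation genes, the nuclear genes for the subunits of the 5 protein complexes with which mitochondria burn fuel and make ATP, were followed in mouse lung during the first days of calorie restriction. They were chosen by symbol: every probe set whose single annotated symbol begins with Nduf, Uqcr or Atp5, begins with Cox and a digit from 4 to 8, or is Sdha, Sdhb, Sdhc, Sdhd or Cyc1. This gave 72 genes with 100 probe sets, of 8251 genes with 10833 probe sets that carry 1 symbol. Complex I was covered by 29 genes, complex II by 4, complex III by 8, complex IV by 14 and complex V by 14. The symbols also took in Cox7a2l, which helps to join complexes III and IV into supercomplexes, and the complex I assembly factors Ndufaf1 and Ndufaf4, which are not subunits. Another 10 probe sets whose annotation lists several symbols were left out.

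The lungs were from C57BL/6 mice, an inbred strain, and their RNA was hybridised to 24 Affymetrix MG-U74Av2 arrays, which measure 1 sample each. Calorie restriction (CR) meant a cut of the food by 2/3, and CR lungs were taken 2, 4, 12, 24, 48, 72 and 96 h after its start, with a pair of arrays for each. Fed control lungs gave a pair of arrays for each of the times 2, 4 and 12 h. For time 0 there were 4 fed arrays, of which a pair is numbered 1 and a pair 2. The control descriptions call the animals always fed yet carry the words for the cut by 2/3 as well, so their diet is known only as far as that wording goes. Age and sex of the mice, and whether any RNA was pooled, are not given in the sources used here. Letters a and b mark the arrays of each number. Nothing says whether they were separate mice or repeat hybridisations, so the spread between letters behind the p-values below may be technical alone. In fits that take the 4 fed 0 h arrays as 1 group, the gap between numbers 1 and 2 adds to the spread.

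Complex I (NADH dehydrogenase) and complex II (succinate dehydrogenase, which is also an enzyme of the citrate cycle) pass electrons to ubiquinone. Complex III passes them on to cytochrome c and complex IV to oxygen, and complex V, the ATP synthase, uses the proton gradient that complexes I, III and IV build. A few core subunits are encoded in mitochondrial DNA and are not among the genes here. The nuclear genes are known as shared targets of the transcription factors NRF1 and GABP (an ETS family factor) and of the PGC-1 coactivators. In the lung, alveolar type II cells are known for many mitochondria, which serve the making of surfactant.

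Upstream sequence is shown for 4 genes chosen with their late CR values known. Sdha was the subunit gene called higher in late CR, Sdhd belongs to the same complex and was not called there, and Atp5e and Uqcr11 fell furthest among the called genes with a sequence in the promoter table. Each line holds the 250 bases before the RefSeq start of the gene on GRCm38.p6, 5′ to 3′ on the gene's strand. Capitals mark matches on either strand to the NRF1 motif (GCGC followed, after any pair of bases, by GCGC once more) or to the ETS core CCGGAAG, which by their letters can share at most 1 base. The windows are chr13:74350241-74350490 (minus strand) for Sdha, chr9:50603850-50604099 (minus) for Sdhd, chr2:174464102-174464351 (minus) for Atp5e and chr10:80406822-80407071 (minus) for Uqcr11.
Sdha: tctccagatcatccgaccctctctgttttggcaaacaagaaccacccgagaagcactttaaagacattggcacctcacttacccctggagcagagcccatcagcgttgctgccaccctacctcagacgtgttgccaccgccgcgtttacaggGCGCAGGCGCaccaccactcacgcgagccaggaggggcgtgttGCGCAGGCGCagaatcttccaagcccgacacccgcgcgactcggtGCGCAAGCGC
Sdhd: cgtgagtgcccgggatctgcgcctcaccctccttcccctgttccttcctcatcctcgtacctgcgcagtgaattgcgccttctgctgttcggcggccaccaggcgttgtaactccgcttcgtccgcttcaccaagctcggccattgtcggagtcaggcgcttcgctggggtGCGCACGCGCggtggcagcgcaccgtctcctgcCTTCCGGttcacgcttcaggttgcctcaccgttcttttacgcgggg
Atp5e: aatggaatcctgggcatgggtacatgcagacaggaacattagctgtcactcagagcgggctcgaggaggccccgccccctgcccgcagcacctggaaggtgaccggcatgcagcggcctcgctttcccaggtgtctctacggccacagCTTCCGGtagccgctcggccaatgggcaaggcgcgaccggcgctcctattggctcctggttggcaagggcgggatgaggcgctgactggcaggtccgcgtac
Uqcr11: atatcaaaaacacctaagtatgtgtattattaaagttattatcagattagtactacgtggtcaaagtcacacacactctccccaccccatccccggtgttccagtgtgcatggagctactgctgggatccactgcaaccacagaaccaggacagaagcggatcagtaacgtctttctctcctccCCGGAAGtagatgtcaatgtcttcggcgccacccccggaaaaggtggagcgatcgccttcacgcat
Sdha holds 3 NRF1 matches and no ETS match, Sdhd holds 1 of each, and Atp5e and Uqcr11 hold 1 ETS match each. The shares that follow were counted over longer windows, which hold the 250 bases before the start and also run past it. Of the 51 tested genes of the set with a window, 14 (27.5%) held an NRF1 match and 15 (29.4%) an ETS match. The shares were 15.1% and 20.1% of 4581 tested genes with a window, and 7.0% and 9.93% of all 27025 genes in the promoter table. Of the 45 genes that were higher in fed 0 h number 1 than in number 2, 37 have a window, and 8 (21.6%) of these held an NRF1 match and 12 (32.4%) an ETS match, against 6 (42.9%) and 3 (21.4%) of the 14 with a window among the 20 tested genes that were not. A match describes letters in the window searched, and its absence says nothing about the factors.

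Deposited probe set intensities were scaled so that every array had the same median, which multiplied the arrays by 0.920 to 1.05. A probe set was tested where it reached its array's median on at least 2 arrays, which held for 76 probe sets of 65 genes of the set and for 7440 probe sets in all. The genes that did not pass were Atp5j2, Cox5a, Cox7a1, Cox8a, Ndufa12, Ndufc2 and Ndufs4, all with median signals under 162 over the 24 arrays. Signals of different probe sets are not comparable with each other, so levels are set only within a probe set. Because whole lung was used, fewer cells of a kind and less RNA per cell cannot be told apart.

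The arrays differed in ways that bear on these genes. The 4 fed 0 h arrays fell into their numbers: number 1 and number 2 correlated at 0.854 to 0.871 across probe sets, while letters a and b of a group and number correlated at 0.940 to 0.976. The highest signal of an array was 74440 to 99043 on 12 arrays (CR 2, 12, 24 and 48 h, fed 0 h number 1 and fed 12 h) and 31595 to 54315 on the other 12 (CR 4, 72 and 96 h, fed 0 h number 2, fed 2 and 4 h). These are called the high and the low signal range below. The ratio of the Gapdh 3′ to 5′ control probes, a measure of RNA integrity, was 1.95 and 2.15 at CR 48 h, 1.76 to 2.02 on the fed 0 h arrays and 1.01 to 1.66 on the others. The actin 3′ to 5′ ratio was 3.81 and 2.69 at CR 48 h, 1.87 to 2.31 on the fed 0 h arrays and 1.24 to 2.77 on the others.

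Across the 11 groups the clearest feature was the high level on the 2 arrays of fed 0 h number 1. Relative to each probe set's mean over the 24 arrays, the median tested member stood at log2 0.77 and 0.68 on these arrays, and between -0.31 and 0.29 on the other 22. The SD of that median between arrays of 1 group and number was 0.163. The members' signals made up 2.44% and 2.45% of all signal on number 1, 1.62% and 1.60% on number 2 and 1.31% to 1.86% on the 20 arrays of the other groups. Next to number 1 came the 2 CR 2 h arrays, at 0.29 and 0.17, and the 2 fed 4 h arrays, at 0.15 and 0.12, while fed 0 h number 2 stood at -0.01 on both arrays. Both arrays of number 1 lay above every other array for 49 of the 76 probe sets and below every other array for 1, where 14.4% and 9.91% of the 7440 did so.

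**Figure D1:**
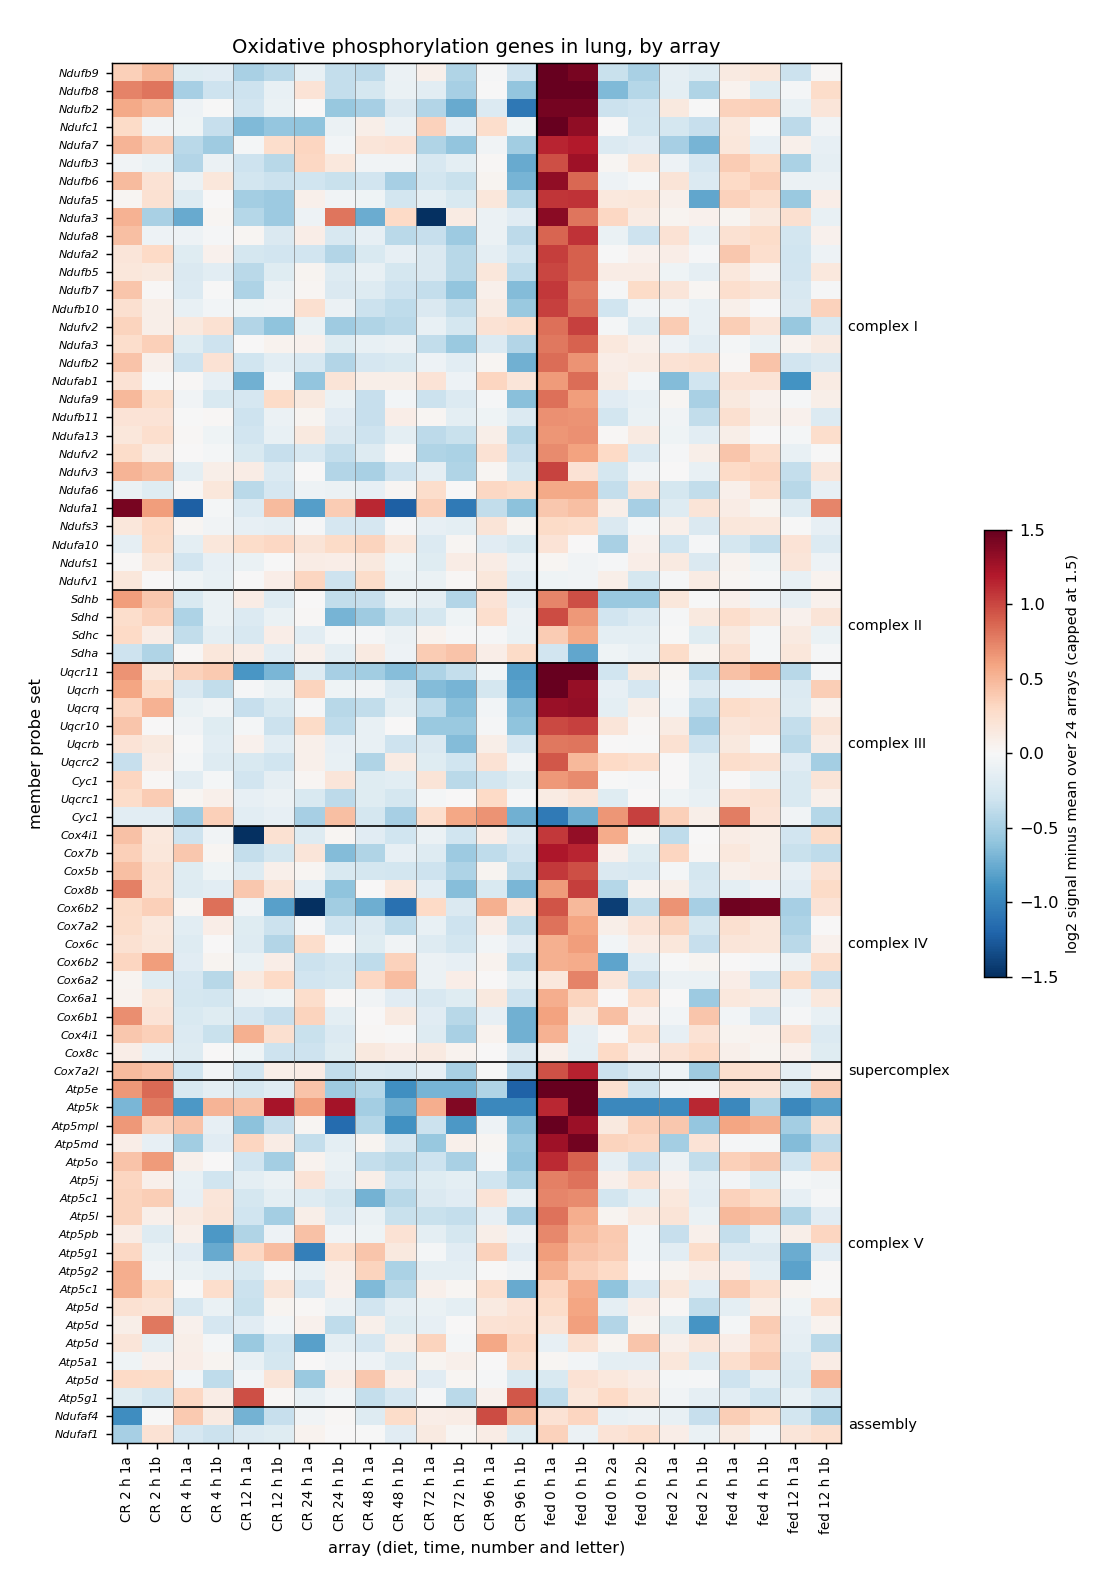
Heat map of the 76 tested probe sets (rows, ordered by complex and, within it, by level on fed 0 h number 1) on the 24 arrays (columns, CR left and fed right of the black line). Colour is log2 scaled signal minus the probe set's mean over the arrays, and the 2 columns of fed 0 h number 1 stand out as red in every complex.

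In each of the 5 complexes both number 1 arrays stood above the other 22. The median member of complex I stood at 0.83 to 0.88 on fed 0 h number 1 against -0.38 to 0.28 on the other 22 arrays. For complex III these values were 0.81 to 0.93 against -0.60 to 0.32. For complex II they were 0.56 to 0.61 against -0.30 to 0.28, for complex IV 0.59 to 0.60 against -0.31 to 0.33, and for complex V 0.58 to 0.67 against -0.27 to 0.31. The lowest medians came from late CR arrays in complexes I, III, IV and V and from a CR 4 h array in complex II.

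**Figure D2:**
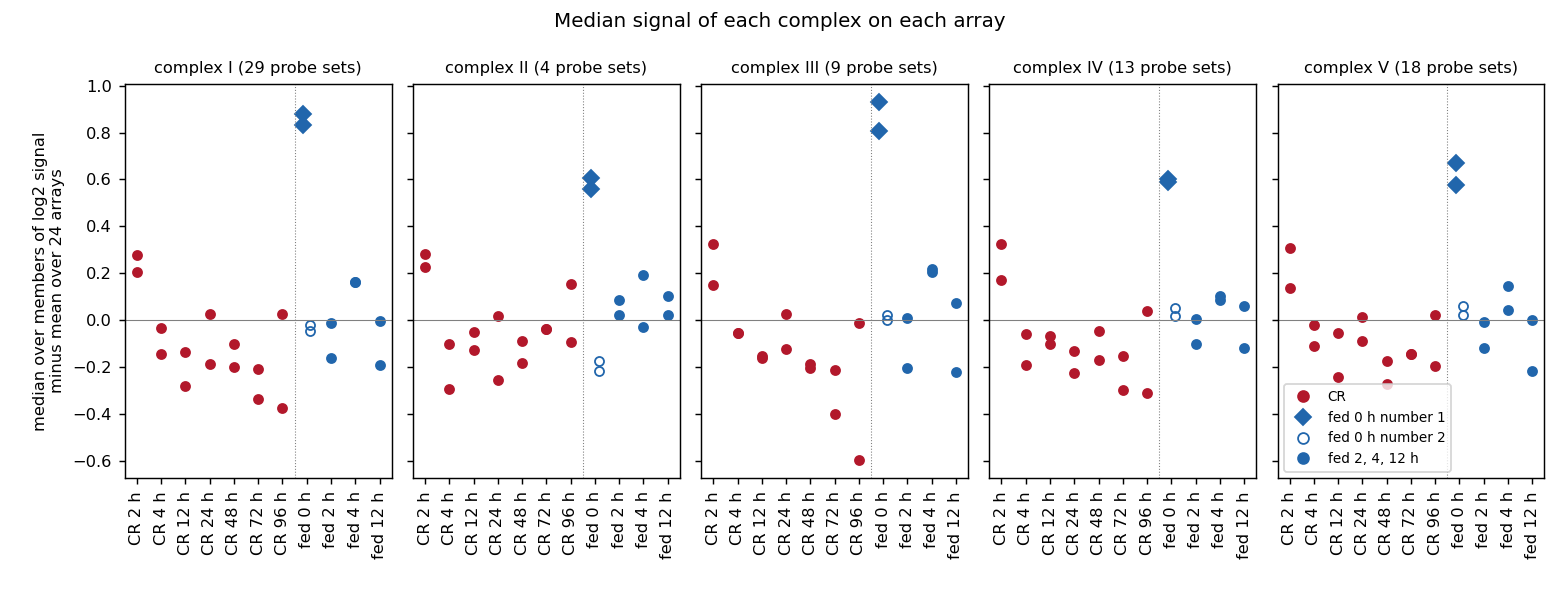
Median over the tested members of each complex of log2 scaled signal minus the mean over the 24 arrays (vertical axis), 1 point per array, by diet and time (horizontal axis). The diamonds of fed 0 h number 1 lie above every other array in all 5 complexes, at 0.56 to 0.93.

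Late CR (24, 48, 72 and 96 h, 8 arrays) was compared with fed 0 h (4 arrays), the control of the same hour of the day by the labelled times. Of the 76 probe sets 29 were lower in late CR and 1 was higher (limma, Benjamini-Hochberg adjusted p under 0.05 over all probe sets tested), while 8.24% of the 7440 were lower and 9.85% higher. The 29 probe sets belonged to 27 genes. The median difference of the 76 was log2 -0.49, beside -0.005 over all probe sets, and 69 of the 76 differences were negative. By complex, 13 of 29 probe sets were lower in complex I, 6 of 9 in complex III, 3 of 13 in complex IV and 7 of 18 in complex V, and in complex II none of 4 was lower and Sdha was higher. Taken singly, CR 24 h gave 0 lower, CR 48 h 3 (Atp5mpl, Atp5e and Atp5c1), CR 72 h 15 (and Sdha higher) and CR 96 h 7, where 0.82%, 2.92%, 2.14% and 2.57% of all probe sets were lower and 2.0%, 2.53%, 3.68% and 3.92% higher. Their median differences were -0.43, -0.57, -0.55 and -0.53, and 26, 35, 40 and 31 members had an unadjusted p under 0.05. A moderated F test among the 4 late times called none of the 76 (43 of 7440, 0.578%), with 2 at an unadjusted p under 0.05. The later pair of late times against the earlier pair called none either, with 6 at an unadjusted p under 0.05 and a median of -0.07 (limma, background 0.309% lower and 1.51% higher). All 8 late CR arrays lay below all 4 fed 0 h arrays for 6 of the 76 and above them for none, beside 2.22% and 3.05% of all probe sets. In both directions 30 members were called, and with any 1 array left out the median difference ran from -0.66 to -0.35.

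The fed 0 h numbers differed from each other by more, in the median member, than late CR did from their mean. Number 1 was higher than number 2 for 49 (45 genes) of the 76 probe sets and lower for 1, beside 20.0% and 19.9% of all, with a median of log2 0.78. Against number 1 alone, late CR was lower for 59 and higher for 2 (background 23.8% and 25.7%, median -0.92). Against number 2 alone, late CR was lower for 1 and higher for none (background 2.94% and 4.81%, median -0.12), with 14 at an unadjusted p under 0.05. The members higher against number 1 were Sdha and the Cyc1 probe set 162469_r_at. These comparisons share the fed 0 h or the late CR arrays, so their values are not independent and are given side by side. Each comparison that names a number comes from a fit with the numbers as separate groups, so their gap is not part of its spread. The pooled comparison above takes that gap as spread. With the numbers separate, 15.9% of all probe sets were lower and 18.3% higher in late CR than in the pooled fed 0 h. Arrays of the high range alone (number 1 as the control of CR 24 and 48 h) gave 54 lower and 1 higher (background 23.3% and 22.7%), and arrays of the low range alone (number 2 as the control of CR 72 and 96 h) gave 2 lower, Ndufa3 and Atp5j (background 3.66%, median -0.20).

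**Figure D3:**
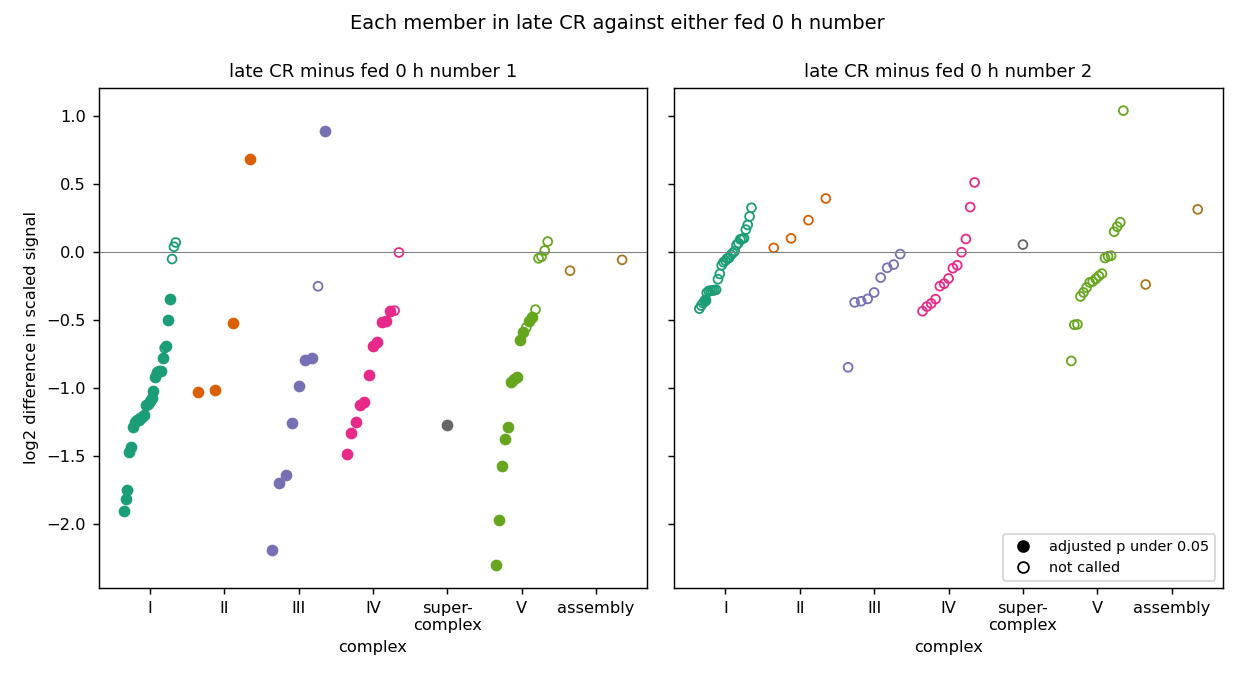
Log2 difference of late CR minus fed 0 h number 1 (left) and minus number 2 (right) for each tested probe set, by complex, with filled points at an adjusted p under 0.05. On the left 61 points are filled and the median is -0.92, and on the right 1 point is filled, Ndufa3, and the median is -0.12.

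The 1 probe set called against both numbers was 96915_f_at of Ndufa3, an accessory subunit of the membrane arm of complex I. It read 3689 to 5657 (median 4733) in the 8 late CR arrays, 9364 and 9984 on fed 0 h number 1, 6033 and 5699 on number 2 and 4849 to 5968 (median 5215) in fed 2, 4 and 12 h. Every late CR array was below all 4 fed 0 h arrays. It was 1.64-fold lower (95% CI 1.35 to 1.99, adjusted p = 0.00193) than the pooled fed 0 h, at log2 -1.07 against number 1 (adjusted p = 9.31e-08) and -0.35 against number 2 (adjusted p = 0.0330). A dimmer Ndufa3 probe set, 102097_f_at, had a log2 difference of -0.82 that was not called (adjusted p = 0.0832).

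Most complex I probe sets, 24 of 29, are for accessory subunits, which surround the catalytic core. Of these, 11 were lower in late CR than in fed 0 h and 20 were higher in fed 0 h number 1 than in number 2. Ndufa2 read 1316 to 1640.2 (median 1497) in late CR, 3686 and 3324 on fed 0 h number 1 and 1787 and 1869 on number 2, and it was 1.70-fold lower (95% CI 1.34 to 2.16, adjusted p = 0.00475) in late CR. Ndufb7 read 4050.0 to 6733 (median 5321) in late CR, 13340.1 and 11086 on number 1 and 6304 and 7799 on number 2, and was 1.76-fold lower (95% CI 1.36 to 2.27, adjusted p = 0.00509). For Ndufa2 all 8 late CR arrays were below the 4 controls, whereas for Ndufb7 the late CR range reached into that of number 2. The greatest gaps between the numbers within complex I belonged to Ndufb8 and Ndufb9. Ndufb9 read 7332 and 5687 on number 1 and 1686 and 1511 on number 2, and number 1 was 4.05-fold higher (95% CI 3.11 to 5.26, adjusted p = 7.05e-07). Ndufb8 read 4109.9 and 4026 on number 1 and 891 and 1050.3 on number 2, and number 1 was 4.21-fold higher (95% CI 3.10 to 5.71, adjusted p = 1.39e-06). On no other array did Ndufb9 exceed 2960.1 or Ndufb8 2457. Their late CR arrays, at 1552 to 2226 for Ndufb9 and 937 to 1635 for Ndufb8, reached down to the level of number 2, and neither gene was called against the pooled control (adjusted p = 0.0750 and 0.130). Ndufa7 read 6139 to 11592 in late CR, 20469 and 21025 on number 1 and 8019.8 and 8238 on number 2, and was higher on number 1 (2.55-fold, 95% CI 2.02 to 3.23, adjusted p = 5.32e-06) without a call in late CR (adjusted p = 0.0613). Ndufa5 was called in both comparisons, 1.89-fold higher on number 1 and 1.67-fold lower in late CR (adjusted p = 0.00404 and 0.0165).

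The core of complex I, which holds the flavin and iron-sulfur centres, gave 2 of 5 probe sets lower in late CR and 3 of 5 higher on number 1. Ndufv2 was lower in late CR with both of its probe sets (log2 -0.58 and -0.58, adjusted p = 0.0180 and 0.0390). Ndufs1, the large iron-sulfur subunit, ranged from 1152 to 1589 over all 24 arrays, with a late CR difference of 0.02 and a difference between numbers of -0.05 (adjusted p = 0.926 and 0.846). Ndufv1, which carries the flavin, ranged from 4993 to 7749, with differences of 0.09 and 0.03 (adjusted p = 0.632 and 0.907). Ndufs3 was higher in number 1 by log2 0.40 (adjusted p = 0.0258) and was not called in late CR. The assembly factors Ndufaf1 and Ndufaf4 were called in neither comparison, with late CR differences of -0.19 and 0.13.

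Complex II has 4 subunits, all encoded in the nucleus and all tested. In late CR against the pooled fed 0 h 1 of them was higher and none lower, while 3 were higher on number 1 than on number 2. Sdha, the flavoprotein that oxidises succinate, read 535 to 798 (median 644) in late CR, 486 and 345 on fed 0 h number 1 and 565 and 550.4 on number 2. It was 1.37-fold higher (95% CI 1.12 to 1.68, adjusted p = 0.0300) in late CR than in the pooled fed 0 h, and it lay lower on number 1 than on number 2 by a log2 difference of -0.45 that was not called (adjusted p = 0.0796). Against number 2 alone the late CR difference was 0.23 (adjusted p = 0.401), and the lowest late CR array was below both number 2 arrays. Sdhb, the iron-sulfur subunit, read 2298 to 3591 (median 2827) in late CR, 5206 and 6093 on number 1 and 2121 and 2116 on number 2. It was 2.66-fold higher (95% CI 2.07 to 3.41, adjusted p = 5.73e-06) on number 1 than on number 2, and in late CR all 8 arrays lay above number 2 and below number 1, with a pooled difference of -0.31 (adjusted p = 0.352). The membrane anchors Sdhc and Sdhd were higher on number 1 as well, by 1.54-fold and 2.08-fold (adjusted p = 0.00190 and 0.000278). Their late CR differences from the pooled fed 0 h were -0.21 and -0.50 (adjusted p = 0.269 and 0.0827).

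The small subunits of complex III, which sit around the catalytic dimer, gave 5 of 5 tested probe sets lower in late CR than in fed 0 h and 5 of 5 higher on number 1 than on number 2. Uqcr11 read 965 to 1676 (median 1237) in late CR, 5927 and 5618 on number 1, 1407 and 1908 on number 2 and 1291 to 2556 (median 1733) in later fed lungs. It was 2.42-fold lower (95% CI 1.57 to 3.74, adjusted p = 0.00798) in late CR, and number 1 was 3.52-fold higher (95% CI 2.52 to 4.93, adjusted p = 8.83e-06) than number 2. Uqcrq, which lies next to the quinone sites, read 3178 to 4937 (median 3855) in late CR, 12303 and 12465 on number 1 and 4500.2 and 5298 on number 2, and was 1.96-fold lower (95% CI 1.41 to 2.72, adjusted p = 0.00810). In both genes the late CR range overlapped number 2 and stayed far below number 1. Uqcrh, the hinge protein at the cytochrome c1 contact, was 1.87-fold lower (adjusted p = 0.0224), Uqcr10 1.74-fold (adjusted p = 0.0120) and Uqcrb 1.5-fold (adjusted p = 0.0246). Of the large core proteins, Uqcrc2 was lower in late CR by 1.49-fold (adjusted p = 0.0104), with 2436 to 3874 (median 3144) in late CR against 6345 and 4649 on number 1 and 4092 and 3972 on number 2. Uqcrc1 ranged from 3143 to 5387 over all arrays and was called in neither comparison. Cyc1, cytochrome c1, had probe sets that disagreed: 95072_at was higher on number 1 by log2 0.69 (adjusted p = 0.00311), and 162469_r_at was lower there by log2 -1.74 (adjusted p = 0.000773).

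In complex IV, cytochrome c oxidase, the nuclear subunits surround a core encoded in mitochondrial DNA. Cox7a2, Cox7b and Cox5b were lower in late CR. Cox7b read 985 to 1756 (median 1229) in late CR, 3597 and 3406 on number 1 and 1618 and 1369 on number 2, and was 1.82-fold lower (95% CI 1.32 to 2.53, adjusted p = 0.0136). Cox5b read 2603 to 3686 (median 2976) in late CR, 7504 and 6989.7 on number 1 and 3079.7 and 3035 on number 2, and was 1.54-fold lower (95% CI 1.14 to 2.08, adjusted p = 0.0432). Number 2 lay within the late CR range for both genes, and against number 2 their differences were -0.25 and -0.000722, which were not called. Cox7a2 was 1.54-fold lower (adjusted p = 0.00991).

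Some complex IV subunits exist as forms for most tissues and forms for heart and skeletal muscle, and both kinds were measured. Cox6a1, the widespread form, had a late CR difference of -0.35, and Cox6a2, the muscle form, one of -0.17 (adjusted p = 0.0536 and 0.467). Cox8b, a muscle form, was higher on number 1 (2.04-fold, 95% CI 1.40 to 2.97, adjusted p = 0.00398), while the widespread Cox8a did not pass the filter. Cox7a1, the muscle form of Cox7a2, did not pass either, at 64.0 to 156 (median 88.6) in late CR, 309 and 288 on number 1 and 163 and 125 on number 2. Cox6b1 had a late CR difference of -0.46 that was not called (adjusted p = 0.0568). Cox6b2, known as a testis form, was higher on number 1 with both tested probe sets, by 2.03-fold and 3.05-fold (adjusted p = 0.00172 and 0.00467), and was not called in late CR. Cox4i1 had late CR differences of -0.40 and -0.88 with its probe sets (adjusted p = 0.119 and 0.0562). Cox7a2l, the supercomplex factor, was higher on number 1 (2.50-fold, 95% CI 1.89 to 3.31, adjusted p = 3.27e-05) and had a late CR difference of -0.61 (adjusted p = 0.0688).

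In complex V, Atp5e and Atp5mpl had the largest late CR differences among the 76 probe sets. Atp5e, the epsilon subunit of the central stalk, read 885 to 2759 (median 1345) in late CR, 6969 and 6729.9 on number 1, 2423 and 1662 on number 2 and 1710.1 to 2682 (median 2173) in later fed lungs. It was 2.67-fold lower (95% CI 1.71 to 4.18, adjusted p = 0.00535) in late CR, and 7 of 8 late CR arrays were below all 4 controls. Atp5mpl, a small proteolipid of the membrane part, read 1502 to 3411 (median 2318) in late CR, 9893 and 8115 on number 1 and 3717 and 4284 on number 2, and was 2.61-fold lower (95% CI 1.74 to 3.91, adjusted p = 0.00305), with all 8 arrays below the 4 controls. Atp5md, which helps ATP synthases pair into dimers, read 1068 to 1677 (median 1388) in late CR, 3842 and 4312 on number 1 and 1994 and 1964 on number 2, and was 2.08-fold lower (95% CI 1.52 to 2.83, adjusted p = 0.00323), again without overlap. The 4 small membrane subunits (Atp5k, Atp5l, Atp5md and Atp5mpl) were all higher on number 1 than on number 2, and all but Atp5k were lower in late CR.

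The peripheral stalk genes Atp5j and Atp5o were lower in late CR by 1.53-fold and 1.58-fold (adjusted p = 0.00618 and 0.0421), and Atp5pb of the same stalk had a log2 difference of -0.37 (adjusted p = 0.175). The gamma subunit Atp5c1 was lower with probe set 92799_g_at (1.41-fold lower, 95% CI 1.11 to 1.79, adjusted p = 0.0462) and not called with 92798_at (log2 -0.21, adjusted p = 0.465). Atp5a1, the alpha subunit of the catalytic head, ranged from 6834 to 10670.4 over the 24 arrays, with a late CR difference of 0.08 and a difference between numbers of 0.14 (adjusted p = 0.577 and 0.453). The 4 tested probe sets of the delta subunit Atp5d were called in neither comparison. The c-ring genes Atp5g1 and Atp5g2, which make the same mature protein, were called in neither comparison, with late CR differences of -0.09 and -0.38 for Atp5g1 and -0.36 for Atp5g2.

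**Figure D4:**
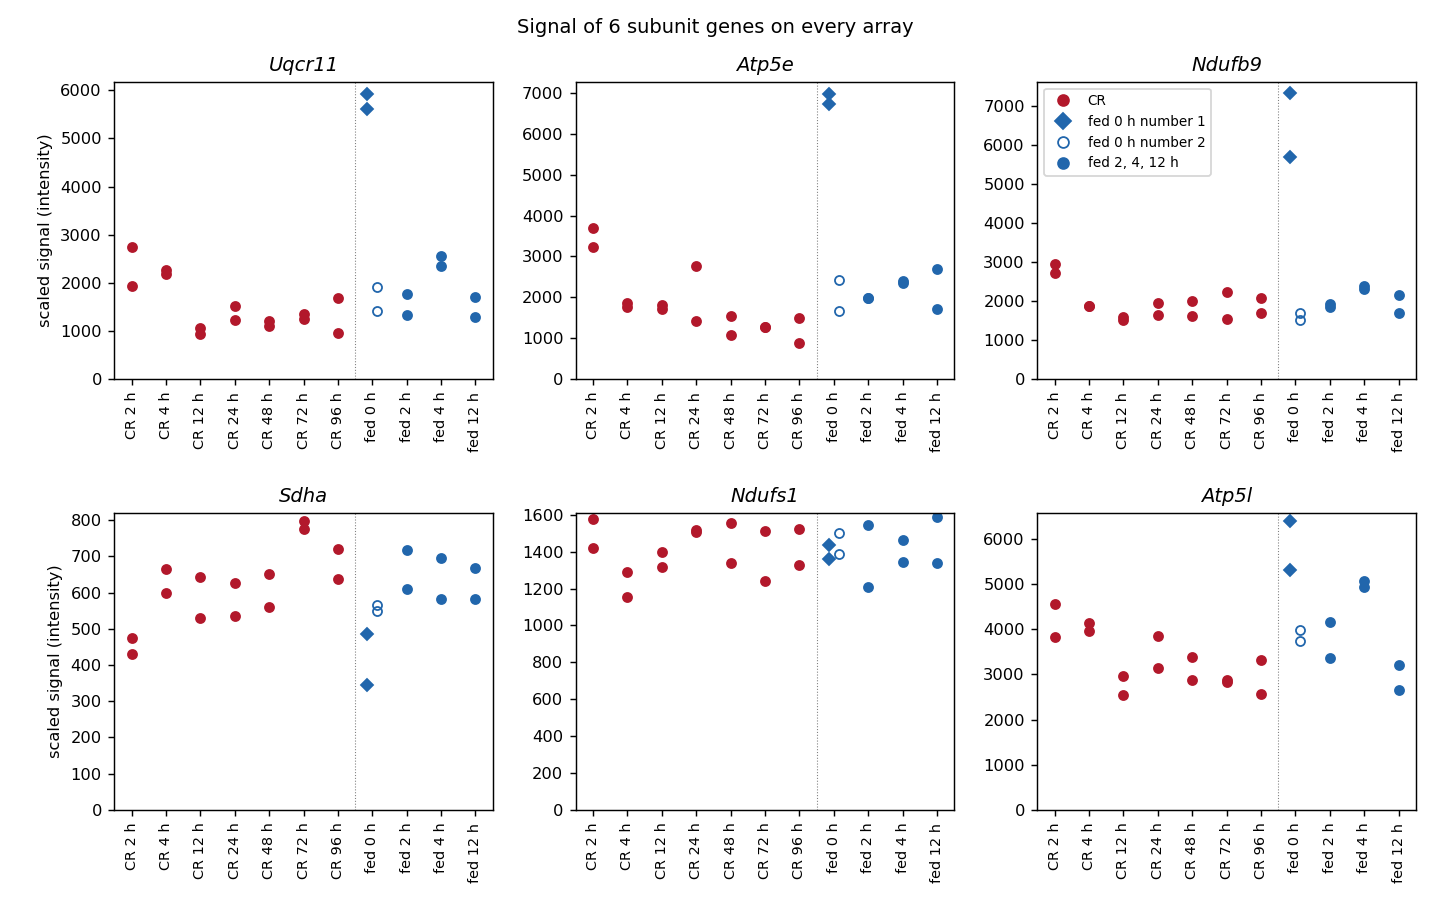
Scaled signal (intensity, linear axis from 0) of 6 subunit genes on every array, CR left and fed right of the dotted line. Uqcr11, Atp5e and Ndufb9 have both number 1 arrays above all others, Atp5l has its late CR arrays below the fed 0 h arrays apart from 1 CR 24 h array, Ndufs1 ranges from 1152 to 1589, and Sdha has its lowest value, 345, on number 1.

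Fed lungs at 2, 4 and 12 h (6 arrays) were set against fed 0 h to see how the same genes varied without restriction. Of the 76 probe sets 1 was lower and none higher (background 0.726% and 1.13%), with a median of log2 -0.37 and 33 at an unadjusted p under 0.05. That 1 was Atp5md, at 1012 to 1831 (median 1384) in later fed lungs, 3842 and 4312 on number 1 and 1994 and 1964 on number 2 (2.10-fold lower, 95% CI 1.51 to 2.91, adjusted p = 0.0197). All 6 later fed arrays were below the 4 fed 0 h arrays. With any 1 array left out, the median difference of the members ran from -0.49 to -0.23. Singly, fed 2 h and fed 4 h gave none (background 0.0538% and 0.108% lower, 0.0269% and 0.202% higher, with 21 and 7 members at an unadjusted p under 0.05). Fed 12 h gave 2 lower, Atp5md and Uqcrc2, and none higher (background 0.901% and 1.02%). Against number 1 alone, later fed lungs were lower for 54 and higher for 2 (background 18.0% and 17.8%, median -0.72). Against number 2 alone, they were lower for none and higher for 2 (background 5.0% and 6.02%, median 0.008), with 11 at an unadjusted p under 0.05. One of these was Sdhb, at 2853 to 3518 (median 3186) in later fed lungs against 2121 and 2116 on number 2 (log2 0.58, adjusted p = 0.0114). The other was a Cox6b2 probe set, 97351_i_at (log2 1.36, adjusted p = 0.0144). The same pair was higher when fed 2 and 4 h alone were set against number 2, both in the low range (background 4.58% lower and 6.18% higher). In the high range, fed 12 h against number 1 gave 48 lower and 1, Sdha, higher (background 16.5% and 14.5%).

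Late CR was also compared with the later fed lungs, a control that leaves fed 0 h out but is not of the same hour of the day. In limma none of the 76 was called (background 2.73% lower and 3.62% higher), with a median of log2 -0.15, 59 negative differences and 11 at an unadjusted p under 0.05, and no member had its groups apart, beside 1.98% of all probe sets with late CR all above and 1.12% with it all below. In that fit the 4 fed 0 h arrays are 1 group, so the gap between their numbers counts as spread for every comparison. With the numbers as separate groups, an alternative chosen after the data were seen, late CR was lower than later fed for 16 probe sets of 15 genes and higher for none, beside 8.49% and 9.76% of all probe sets. Atp5e had a log2 difference of -0.64 (adjusted p = 0.00552), Ndufb2 one of -0.62 (adjusted p = 0.000951 with 95131_f_at), Uqcr11 one of -0.48 (adjusted p = 0.0109) and Sdhd one of -0.35 (adjusted p = 0.0248). For all 4 genes the ranges of the arrays overlapped. Low range arrays alone (fed 2 and 4 h as the control of CR 72 and 96 h) gave 1 lower member, Atp5l, beside 1.94% of all, and high range arrays alone (fed 12 h as the control of CR 24 and 48 h) gave no call in limma, with none at an unadjusted p under 0.05 (background 0.417% lower).

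The early CR times were each set against the fed lungs of the same hour. Over CR 2, 4 and 12 h limma called none of the 76 in either direction (background 0.0134% lower and 0.0134% higher), with a median of log2 -0.002 and 2 at an unadjusted p under 0.05. With the signal range as a term in the fit, 11 of the 76 were lower and none higher, with a median of -0.24, where 6.08% of all probe sets were called in either direction. Range differs within a group only in fed 0 h, so that term is the gap between its numbers 1 and 2. It carries that gap into CR 2 h against fed 2 h, so these 11 are no measure of early CR free of it. None was called at a single early time, where all-gene shares were 0.0% in either direction at 2 and 4 h and 0.0403% lower and 0.108% higher at 12 h, and 5, 0 and 2 members had an unadjusted p under 0.05 at 2, 4 and 12 h. The median differences were 0.27 at 2 h, -0.25 at 4 h and -0.10 at 12 h. At 2 h both CR arrays were above both fed arrays for 42 members and below them for 4, where 26.5% and 19.6% of all probe sets were, and there CR lies in the high and fed in the low signal range. Atp5e, for example, read 3223 and 3696 in CR 2 h and 1974 and 1994 in fed 2 h, 1754 and 1859 in CR 4 h and 2409 and 2352 in fed 4 h, and 1707 and 1812 in CR 12 h and 1710.1 and 2682 in fed 12 h. A moderated F test among the 3 early effects called none of the 76 and none of the 7440 (4 and 358 at an unadjusted p under 0.05). Over the 11 groups, with the fed 0 h numbers pooled, the F test called 1 member, Atp5l (adjusted p = 0.0390, background 9.26%).

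Atp5l, subunit g of the membrane part of complex V, read 4572 and 3829, 3972 and 4137, 2957 and 2545, 3848 and 3142, 3376 and 2886, 2868 and 2825 and 3328 and 2573 at CR 2, 4, 12, 24, 48, 72 and 96 h. It read 6389.6 and 5304 on fed 0 h number 1, 3742 and 3993 on number 2, and 4156 and 3373, 5067 and 4942 and 2656 and 3219 at fed 2, 4 and 12 h. The 12 h arrays of both diets were among the lowest, and fed 4 h and fed 0 h number 1 were highest. In late CR it was 1.54-fold lower (95% CI 1.26 to 1.88, adjusted p = 0.00616).

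Other genes of the pathway were counted from lists, with 1 probe set per gene, the brightest. Of 54 tested genes for mitochondrial ribosomal proteins, which translate the subunits encoded in mitochondrial DNA, 19 were lower in late CR than in fed 0 h and none higher, with a median of log2 -0.50, where 8.24% of all probe sets were lower and 9.85% higher. Mrpl13 had the largest fall (log2 -1.01, adjusted p = 0.00469). On number 1, 33 were higher and 1, Mrps18a, lower than on number 2, where 20.0% of all were higher and 19.9% lower. Against number 2 alone 1 of the 54, Mrpl52, was lower in late CR (log2 -0.41, adjusted p = 0.0430). That is no larger a share than the 2.94% of all probe sets that were lower there. The summed signal of these ribosomal protein genes was 43391 to 54491 in late CR, 88035 to 88683 on number 1 and 52126 to 53843 on number 2. Of 20 genes for assembly factors and electron carriers, 3 were lower in late CR: Sdhaf1, an assembly factor of complex II (log2 -0.77, adjusted p = 0.000447), Atpif1, the inhibitor of ATP synthase (log2 -1.0, adjusted p = 0.00536), and Cox17, a copper chaperone of complex IV (log2 -0.59, adjusted p = 0.0148). Sdhaf1 was also lower against number 2 alone (log2 -0.59, adjusted p = 0.0113), where 2.94% of all probe sets were lower. On number 1, 9 of the 20 were higher than on number 2, among them Cycs, cytochrome c itself, and 1 was lower, Lrpprc, which stabilises mitochondrial mRNA (log2 -1.20, adjusted p = 0.00828).

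The citrate cycle and pyruvate dehydrogenase genes gave no call in late CR among 16 tested (limma, median log2 -0.01), and between the numbers 2 of the 16 (Fh1 and Suclg1) were higher on number 1 and 2 (Ogdh and Cs) lower, no larger a share than the 20.0% and 19.9% of all probe sets (log2 -0.76, adjusted p = 0.000669 for Cs, citrate synthase). Of 8 tested regulators, Yy1 and Nfe2l2 were higher in late CR than in fed 0 h (log2 0.62, adjusted p = 0.0133 for Yy1). In that comparison 8.24% of all probe sets were lower and 9.85% higher. Of the same 8, 3 (Yy1, Hif1a, Nfe2l2) were lower and Gabpb1, a GABP subunit, higher on number 1 than on number 2. Ppargc1a, which encodes PGC-1 alpha, and Tfam, a factor of mitochondrial DNA, did not pass the filter.

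Markers of cell types were measured beside these genes. Of all probe sets, 8.24% were lower and 9.85% higher in late CR than in fed 0 h, and 2.94% were lower against number 2 alone. Between the numbers, 20.0% were higher and 19.9% lower on number 1. A single call in a list this short is not set apart from those shares. The labelled tissue fits its alveolar type II markers, of which surfactant protein gene Sftpc read 23976 to 90893 in late CR and 42569 to 97698 on the fed 0 h arrays. Of 4 tested alveolar type II genes 2, Slc34a2 and Sftpb, were higher in late CR, and Sftpc and Lyz2 were higher and Sftpb lower on number 1. Of 3 tested club and ciliated cell genes none was called in late CR, and Scgb1a1 was higher and Cyp2f2 and Foxj1 lower on number 1. Of 10 tested heart and skeletal muscle genes 6 were lower in late CR than in fed 0 h, and 5 were lower against number 2 alone, led by Myl7 (log2 -1.08, adjusted p = 0.000139). The summed signal of the 10 was 14499 to 27791 in late CR, 30449 to 30555 on number 1, 28591 to 36448 on number 2 and 17477 to 23449.7 in later fed lungs, and 3 of the 10 were lower on number 1 than on number 2 and none higher. Ckm and Myl3 of that list did not pass the filter. Of 6 endothelial genes 3 (Tie1, Flt1 and Tek) were higher in late CR and 5 were lower on number 1, with sums of 16089 to 25109 in late CR, 8715 to 10363 on number 1 and 18678 to 22976 on number 2. Of 4 B cell genes 2 (Cd79b and Ms4a1) were lower in late CR and 3 were higher on number 1, with sums of 1672 to 2957 in late CR, 8009 to 8956 on number 1 and 1878 to 3673 on number 2. Of 6 macrophage genes none was called in late CR, and Chil3 and Cd68 were higher and Csf1r lower on number 1, with sums of 4675 to 25799 in late CR, 18080.1 to 18249.9 on number 1 and 4265 to 6567 on number 2. Of 3 erythroid genes none was called in late CR, and Hba-a1 and Alas2 were higher on number 1, with sums of 35749.9 to 61872 in late CR, 75506 to 81095 on number 1 and 37316 to 39738 on number 2. None of the 3 brown fat genes on the array passed the filter. The part of cell makeup in the differences of the oxidative phosphorylation genes was not tested.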

How the data were processed

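Linear probe set intensities were used as deposited by the authors for the 24 MG-U74Av2 arrays, and the sources used here do not say with which software. The deposited intensities share 1 trimmed mean per array (lowest and highest 2% left out), with medians of 300.2 to 342.3. A further array of another type, whose labels name no single treatment, was not used. Control probe sets were left out, each array was scaled to the common median, values under the 25th percentile of all values (80.4) were set to it, and log2 was taken. Symbols came from the platform annotation. limma 3.58.1 in R 4.3.3 fitted 11 groups (13 residual degrees of freedom, eBayes with an intensity trend), with Benjamini-Hochberg adjustment over 7440 probe sets, and the same script was tested on simulated data. Comparisons that name fed 0 h number 1 or number 2 came from a separate fit with the numbers as separate groups. The gap between the numbers was spread in the first fit and not in the second. Python 3.11.15 and pandas 2.3.3 made summaries.

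The members, the gene lists (mitochondrial ribosome, assembly and electron carriers, citrate cycle and pyruvate dehydrogenase, regulators, cell type markers) and the tests were chosen with earlier results of these data known. Named genes were, per complex, those of smallest p in the main comparisons, plus complex II, isoform sets, probe sets that disagreed and members called against both control numbers. Ndufb2, Ndufs1, Ndufs3, Ndufv1, Ndufv2, Ndufaf1, Ndufaf4, Uqcrb, Uqcrc1, Cyc1, Atp5a1, Atp5d, Atp5k and Atp5pb were not picked by these rules and were added after their values were seen. Probe sets with suffixes f, s, g, r or i may also bind related genes or pseudogenes, so their gene is less certain. The number of arrays limits precision. Alternatives covered scaling, floor, filter, variance model, array weights, letters, groups in the fit and control arrays.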

Additional observations from a re-analysis of the deposited data

Results flagged for a closer look

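The early CR difference had opposite directions at 2 h and 4 h. The median member stood at 0.29 and 0.17 on the CR 2 h arrays and at 0.00 and -0.14 on the fed 2 h arrays, but at -0.15 and -0.06 on the CR 4 h arrays and at 0.15 and 0.12 on the fed 4 h arrays (log2 relative to the mean over 24 arrays). Every CR array lay above every fed array at 2 h and below every fed array at 4 h. Each side has only 2 arrays. At 2 h 26.5% of all probe sets had both CR arrays above both fed arrays, and 19.6% had them below. The CR minus fed difference at 2 h less that at 4 h was 0.539 for the median of all tested members. By complex it was 0.578 for complex I, 0.482 for complex II, 0.601 for complex III, 0.517 for complex IV and 0.445 for complex V. In complex II the arrays were also apart in opposite directions at 2 h and 12 h, where the difference was 0.351. These differences of medians were not tested. Probe set by probe set, the limma F test among the 3 early effects called none of the 76 members, with 4 at an unadjusted p under 0.05. At 2 h the CR arrays belong to the high and the fed arrays to the low signal range, and at 4 h both belong to the low range.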

How the results depend on the processing

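Counts of members called varied with the control arrays and with other choices, and the share of all probe sets called, given in brackets as a percent, varied with them. For counts with 1 array left out that share is not given here and may have moved as well, so those counts are no result about the members alone. In late CR against fed 0 h they were 30 with the controls pooled (18.1%), 61 against number 1 (49.4%, median -0.92), 1 against number 2 (7.76%, -0.12), 55 within the high (46.0%, -0.88) and 2 within the low signal range (10.7%, -0.20). With signal range as a term they were 48 (34.2%), and with the numbers as separate groups 48 (34.2%, chosen after seeing the data). Signal range differs within a group only in fed 0 h, so the range term is the gap between its numbers in every comparison. For late CR against fed 0 h it is the same fit as separate numbers, and each called 2543 of 7440 probe sets. Counts were 8 with array weights (3.87%), 4 with only the groups compared (4.66%) and 0 with letters a and b averaged (0.672%, limma, 48 members had an unadjusted p under 0.05 in the pooled comparison). Leaving out 1 array gave 12 to 46 calls and medians of -0.66 to -0.35, with 12 without fed 0 h array 1a, 14 without 1b and 46 without 2a. In later fed against fed 0 h 1 member was called (1.85%), 0 with no filter (0.934%), with array weights (0.175%), with only the groups compared (0.0269%) or with letters averaged (0.0%), 10 with the range term (6.99%) and 31 with separate numbers (12.6%). It was 56 against number 1 (35.8%, -0.72), 2 against number 2 (820 of 7440 probe sets, 0.008), 2 within the low (10.8%, 0.041) and 49 within the high range (31.0%, -0.84), and 0 to 14 with 1 array left out (medians -0.49 to -0.23, 14 without 2a, 13 without 2b). In number 1 against number 2, 50 were called (39.9%), 24 with letters averaged (13.6%), 37 to 52 with 1 array left out (medians 0.75 to 0.81), and the median was 0.62 with no filter. The range term could not be fitted there. With letters averaged each number was 1 sample, and that fit takes its spread from the other groups. In late CR against later fed 0 (6.34%) became 10 with array weights (16.1%), 11 with only the groups compared (15.2%), 32 with the range term (30.1%), 16 with separate numbers (18.3%), 1 within the low range (4.65%) and 0 to 1 with 1 array left out (medians -0.20 to -0.09, 1 without fed 0 h 2a). The range term there brings the gap between the fed 0 h numbers into a difference that otherwise leaves fed 0 h out. In early CR 0 (0.0269%) became 11 with the range term (6.08%, median -0.24), where Cox5b (-0.36), Ndufb8 (-0.56) and Uqcrh (-0.47) reversed, and stayed 0 with any 1 array left out (medians -0.06 to 0.04). Atp5c1 reversed in late CR within the low range (0.13), and Sdhb in later fed lungs against number 2 (0.58) and within the low range (0.61). The causes of these changes were not tested. With the letter as a replicate block the counts were 29 (17.2%) for late CR, 0 (0.0134%) for early CR and 1 (1.67%) for later fed. They were 51 (40.0%) for number 1 against 2 and 0 (5.91%) for late CR against later fed. Arrays of one letter did not deviate together over all probe sets tested (correlations of -0.19 to 0.12, 2 of 66 pairs over 0.1). This check cannot exclude pairing in part of the groups or genes. Of 7930 single-gene values under alternatives, 7455 kept direction and call, 256 gained a call, 213 lost it and 6 reversed.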

Other observations

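Oxidative phosphorylation genes are short, and gene span moved with the difference between the control numbers. The median span from start to end of the annotated gene (RefSeq, GRCm38.p6) was 7.13 kb for the 76 tested member probe sets and 20.3 kb for the 6715 tested probe sets with a span. Over those 6715 probe sets, number 1 minus number 2 had a median of log2 0.27 for genes under 10 kb and -0.15 for longer genes, with a Spearman rho of -0.34 between span and difference. These are genes of the same arrays and no independent replicates. Among the members the medians were 0.80 for 55 probe sets under 10 kb and 0.70 for 21 longer ones (rho -0.17). In late CR against fed 0 h the medians over all were -0.17 for genes under 10 kb and 0.08 for longer genes, and among the members -0.57 and -0.48. Over all probe sets rho was 0.33 there, but 0.03 in late CR against number 2 alone, where the medians were -0.05 and 0.01, and -0.20 and -0.01 among the members. The part of gene span in the results was not tested.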
